A study of Mus musculus with 2 samples.

Results

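The V0 sector is the membrane-embedded portion of the vacuolar H+-ATPase (V-ATPase), the proton pump that acidifies lysosomes, endosomes, the Golgi and secretory vesicles. Its subunits were followed at the mRNA level in 4T1 cells, a mouse mammary carcinoma line that spreads to the lung. The members were the 10 genes Atp6v0a1, Atp6v0a2, Tcirg1, Atp6v0a4, Atp6v0b, Atp6v0c, Atp6v0d1, Atp6v0d2, Atp6v0e and Atp6v0e2, found by symbol among 21911 genes listed with a level. The set was chosen by measured values of these same libraries, because the FPKM of Atp6v0c was far higher with oxalate and its partner subunits could be set beside it, so the Atp6v0c values below are a description and carry no test. All 10 members were listed, and 8 of them had a mean of at least 1 FPKM (a level in sequenced fragments, divided by transcript length and by the depth of the library).

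The cells were treated for 48 h with PBS (the library titled 4T1 NC) or with potassium oxalate (the library titled 4T1 OX), the salt of an end product of glyoxylate metabolism. The labels give the oxalate dose as 20 mM in the treatment protocol and as 20 microM in the sample characteristics, and the methods of the study give the micromolar dose. There was 1 library per condition, so no difference has a replicate check, no p-value is given, and an effect of oxalate cannot be told apart from a difference between cultures or libraries. Steps between low values put the PBS library at about 56700000 reads and the oxalate library at about 36500000. Intervals printed below are exact 95% intervals of the log2 ratio of FPKM from these estimated reads. They cover counting error only and not the spread between cultures. Epithelial keratin Krt7 was high in both libraries (703.31 FPKM with PBS and 699.04 with oxalate), as was the adhesion molecule Epcam (125.71 and 125.33), the highest and the lowest of 5 epithelial markers. Of 6 leukocyte, macrophage and osteoclast markers, Ptprc, Adgre1 and Ocstamp were listed at 0 in both libraries, and Ctsk at 0.02 and 0. Csf1r, the receptor of the macrophage growth factor, was at 4.93 and 5.18 FPKM and was named after its values were seen. Acp5, a lysosomal acid phosphatase, was the highest of the 6 (9.97 and 9.63 FPKM), and their summed level went from 14.92 to 14.81. All 4 renal intercalated cell markers (Foxi1, Slc4a1, Slc26a4 and Aqp6) were listed at 0. In a bulk culture, fewer cells of a type and less RNA per cell cannot be told apart.

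The V-ATPase is a rotary motor. The cytosolic V1 sector hydrolyses ATP and turns a central stalk, and the stalk turns a ring of proteolipids in the membrane. Each proteolipid carries protons past the a subunit, which offers an entry and an exit path on either side of the bilayer. In the V0 sector, Atp6v0c encodes the c proteolipid that makes up most of the ring and Atp6v0b the related c″ proteolipid. The d subunit joins the ring to the stalk, and the e subunit is a small hydrophobic protein at the edge of the complex. The a, d and e subunits each exist as paralogues whose choice depends on the tissue and on the membrane: a1 is best known from synaptic vesicles, a2 from the Golgi and endosomes, a3 (gene Tcirg1) from lysosomes and the osteoclast border, and a4 from acid-secreting kidney cells, while d2 is known from osteoclasts.

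Atp6v0c (ENSMUSG00000024121, chr17:24163866-24169702 of GRCm38, minus strand, 6 annotated transcripts of which 3 are coding) has 2 annotated processed pseudogenes that are almost the same as its coding sequence. Atp6v0c-ps2 (chr6:37806086-37806550, plus strand) matched 464 of the 465 coding bases, and Atp6v0c-ps1 (chr7:4412438-4412900, plus strand) matched 450 of 461 aligned bases. The longest stretch without a difference was 354 bases against Atp6v0c-ps2 and 90 bases against Atp6v0c-ps1. The windows are shown because a read from such a stretch fits more than 1 place in the genome. Capitals mark the bases that differ within each pair.
Atp6v0c, coding bases 52 to 111: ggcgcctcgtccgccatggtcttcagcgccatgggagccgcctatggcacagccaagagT
Atp6v0c-ps2, same window: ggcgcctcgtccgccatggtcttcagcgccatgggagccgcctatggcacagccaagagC
Atp6v0c, coding bases 64 to 123: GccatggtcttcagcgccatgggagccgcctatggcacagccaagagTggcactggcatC
Atp6v0c-ps1, same window: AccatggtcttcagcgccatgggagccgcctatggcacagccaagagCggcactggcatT

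Over these 60 bases Atp6v0c-ps2 differed from Atp6v0c at 1 base and Atp6v0c-ps1 at 3 bases. Neither pseudogene was among the genes listed with a level. How reads that fit several places were assigned is not given in the sources used here, so the Atp6v0c level is uncertain to that extent. The active paralogues were far less alike. In coding sequence, pairs of a paralogues were identical at 63.1% to 69.5% of aligned bases, with a longest shared run of 29 bases between Atp6v0a1 and Tcirg1. Atp6v0d1 and Atp6v0d2 were identical at 65.9%, Atp6v0e and Atp6v0e2 at 69.1%, and the proteolipids Atp6v0b and Atp6v0c at 62.8% with a longest shared run of 11 bases.

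Promoters are shown because the transcription factors Tfeb, Tfe3 and Mitf, which govern many lysosomal genes, are known to bind the letters CACGTG and their longer form TCACGTGA. Both motifs read the same on either strand, and every TCACGTGA contains a CACGTG. RefSeq promoters (250 bases before to 50 after the start, GRCm38.p6) were matched for 8 of the 10 members, 12 promoters in all, and Atp6v0a2 and Atp6v0d2 were not matched. CACGTG was found in the promoters of Atp6v0b, Atp6v0d1 and Atp6v0e, 3 of 8 members, against 8.09% of 27025 genes, and TCACGTGA in those of Atp6v0d1 and Atp6v0e, 2 of 8, against 1.12%. None of the 3 promoters of Atp6v0c held either. Only exact matches were searched, so forms that differ at a base were not counted for any gene. The second Atp6v0c window below holds the letters TCATGTGA, which differ from TCACGTGA at 1 base. The windows below cover the 3 members with a match and 2 of the 3 Atp6v0c promoters. They run from 45 bases before to 15 bases after the start, except 45 to 5 for the first of Atp6v0c and 20 to 10 for Atp6v0e. Capitals mark CACGTG.
Atp6v0b, chr4:117887315-117887374, minus strand: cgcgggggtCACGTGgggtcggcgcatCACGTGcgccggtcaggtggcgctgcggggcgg
Atp6v0d1, chr8:105566050-105566109, minus strand: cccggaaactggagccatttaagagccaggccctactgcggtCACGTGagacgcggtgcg
Atp6v0e, chr17:26676376-26676405, plus strand: gggcggggctttagcgcgccgatCACGTGa
Atp6v0c, chr17:24169674-24169723, minus strand: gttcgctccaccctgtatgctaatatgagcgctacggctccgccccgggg
Atp6v0c, chr17:24169436-24169495, minus strand: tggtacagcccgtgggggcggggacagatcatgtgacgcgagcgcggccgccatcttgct

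In Atp6v0b the motif began at bases -36 and -18 from the start, in Atp6v0d1 at base -3 and in Atp6v0e at base 4 of the transcript. A match is a description of the letters and not of binding.

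The c proteolipid stood apart from every other V0 subunit. Atp6v0c was at 59.03 FPKM in the PBS library and at 173.99 FPKM in the oxalate library, a ratio of 2.95. The difference was 1.54 as log2 of (oxalate FPKM + 1) over (PBS FPKM + 1), the scale used for all differences here, which understates the change of genes near 1 FPKM. It rested on about 2887 and 5482 estimated reads, and the interval of the log2 ratio without the added 1 was 1.49 to 1.63. Among the 10267 genes with a mean of at least 1 FPKM it had the seventh largest upward difference, and 0.195% of these genes differed by as much in either direction. By level it moved from rank 1777 to rank 472. The 3 coding transcripts of Atp6v0c ranged from 609 to 1183 bases, a span of 1.94-fold, and no annotated gene overlapped it.

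Atp6v0b (ENSMUSG00000033379, chr4:117884326-117887333, minus strand), the other proteolipid of the ring, was at 104.54 and 109.58 FPKM in PBS and oxalate, respectively. Its log2 difference was 0.07, the interval 0.0007 to 0.14, and 59.5% of all genes compared differed by as much. The order of the proteolipids was therefore opposite in the libraries: c stood at 0.565 of the c″ level with PBS and at 1.59 times the c″ level with oxalate.

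**Figure D1:**
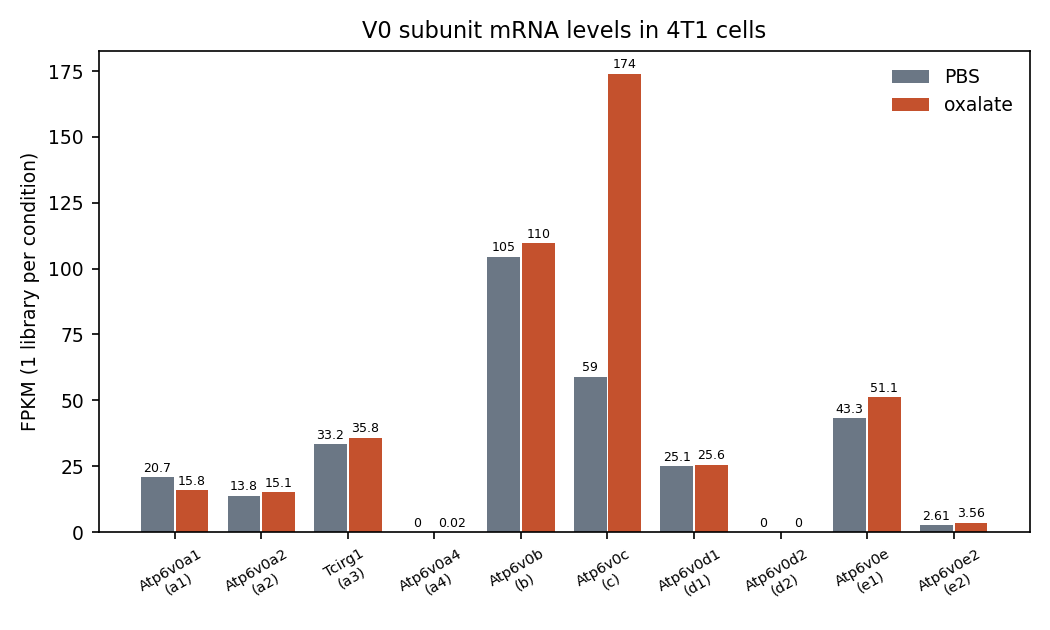
Levels of the 10 V0 subunit mRNAs in FPKM (y axis), with 1 bar for the PBS library and 1 for the oxalate library per gene and no error bars because each condition has 1 library. Atp6v0c reaches 173.99 FPKM with oxalate from 59.03 with PBS, while the other bars of each pair lie close together and Atp6v0a4 and Atp6v0d2 stay at or near 0.

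The a subunit is the stator side of the proton path and the part that places the pump on a given membrane. Its 3 paralogues with a measurable level went in different directions, and their sum hardly differed (67.83 FPKM with PBS and 66.76 with oxalate). Tcirg1 (a3, ENSMUSG00000001750, chr19:3896050-3907133, minus strand) was the highest by FPKM, at 33.25 FPKM in PBS-treated and 35.81 FPKM in oxalate-treated cells. Its log2 difference was 0.10, with an interval of 0.04 to 0.18. Atp6v0a2 (ENSMUSG00000038023, chr5:124628576-124724455, plus strand) was at 13.85 and 15.11 FPKM, a log2 difference of 0.12 with an interval of 0.06 to 0.19. Differences of this size were common, since 42% of all genes differed by as much as Tcirg1 and 36.6% by as much as Atp6v0a2.

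Atp6v0a1 (ENSMUSG00000019302, chr11:101009452-101063719, plus strand) was the only V0 member with a mean of at least 1 FPKM that was lower with oxalate. It was at 20.73 and 15.82 FPKM in PBS and oxalate, respectively, from about 3497 and 1719 estimated reads. The log2 difference was -0.37, with an interval of -0.47 to -0.31, and 4.85% of all genes differed by as much. Its 5 coding transcripts differ 10.7-fold in length and the microRNA gene Mir6928 lies within it on the same strand, so that its FPKM depends on the lengths assumed, and whether either bears on the difference was not tested. As a share of the summed a subunit FPKM, Atp6v0a1 went from 30.6% to 23.7%, Atp6v0a2 from 20.4% to 22.6% and Tcirg1 from 49% to 53.6%. The order a3, a1, a2 by FPKM was the same in both libraries. By estimated reads, which are not divided by length, Atp6v0a2 lay above Tcirg1 (4197 and 4143 with PBS, 2949 and 2874 with oxalate). The 4 coding transcripts of Tcirg1 differ 9.13-fold in length, so its place also depends on the lengths assumed.

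Atp6v0a4 (ENSMUSG00000038600, chr6:38048483-38124586, minus strand) was listed at 0 FPKM in PBS-treated and 0.02 FPKM in oxalate-treated cells, about 2 estimated reads. A count of 0 allows up to 0.0161 FPKM in the PBS library at 3 reads, and the corresponding limit in the oxalate library was 0.0249 FPKM, so no difference was detectable at this depth. The renal form of the a subunit thus held 0% and 0.03% of the a subunit FPKM.

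**Figure D2:**
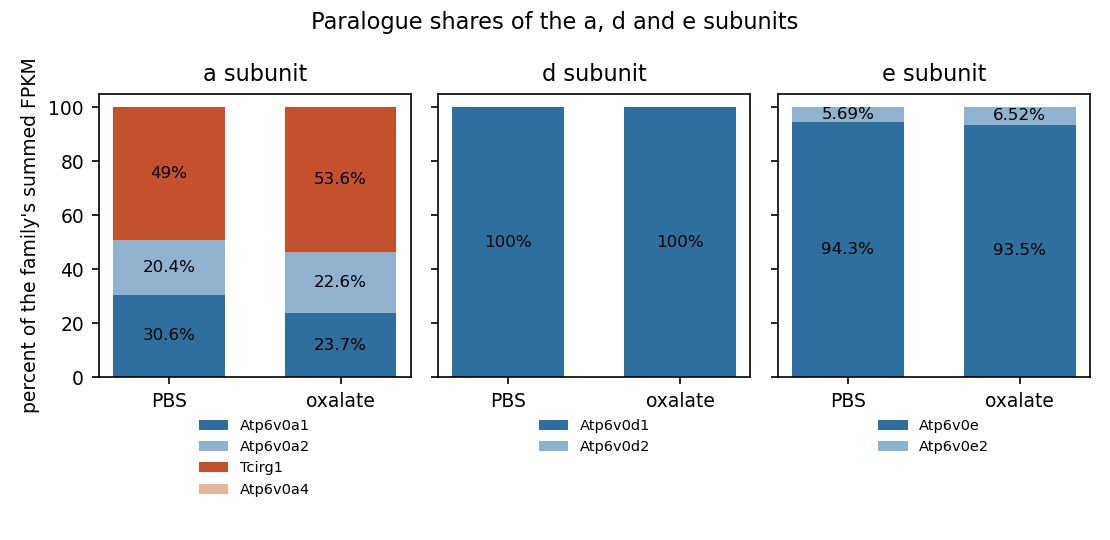
Share of each paralogue in the summed FPKM of its subunit (percent, y axis) in the PBS and the oxalate library, for the a, d and e subunits. Tcirg1 holds the largest a share in both libraries (49% and 53.6%), Atp6v0d1 holds 100% of the d subunit, and Atp6v0e holds 94.3% and 93.5% of the e subunit.

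The d subunit, which couples the ring to the rotating stalk, came from 1 paralogue. Atp6v0d1 (ENSMUSG00000013160, chr8:105524465-105566047, minus strand) was at 25.05 and 25.61 FPKM in PBS and oxalate, respectively, with a log2 difference of 0.03 and an interval of -0.06 to 0.13 that includes 0. It differed least of the 8 members, and 80.8% of all genes differed by as much or more. Atp6v0d2 (ENSMUSG00000028238, chr4:19876841-19922605, minus strand) was listed at 0 in both libraries, where 3 reads would give 0.0363 and 0.0564 FPKM.

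The e subunit came mostly from Atp6v0e (ENSMUSG00000015575, chr17:26663231-26699647, plus strand), at 43.26 FPKM in PBS-treated and 51.08 FPKM in oxalate-treated cells. Its log2 difference was 0.23, with an interval of 0.15 to 0.32, and 12.5% of all genes differed by as much. Atp6v0e2 (ENSMUSG00000039347, chr6:48537615-48541801, plus strand), the paralogue best known from brain, was at 2.61 and 3.56 FPKM. Its log2 difference was 0.34 on the scale with the added 1, and it rested on about 252 and 221 estimated reads, with an interval of 0.18 to 0.71. Both e genes were higher with oxalate, their sum went from 45.87 to 54.64 FPKM, and the share of Atp6v0e2 went from 5.69% to 6.52%.

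Per length, the order of V0 levels with PBS was Atp6v0b, Atp6v0c, Atp6v0e, Tcirg1, Atp6v0d1, Atp6v0a1, Atp6v0a2, Atp6v0e2, Atp6v0a4 and Atp6v0d2. With oxalate the first places were exchanged, Atp6v0c before Atp6v0b, and the order of the other 8 genes was the same. Without replicate libraries it could not be tested which neighbours in this order differ beyond the spread between cultures. The highest member with a mean of at least 1 FPKM lay 40.1-fold above the lowest with PBS and 48.9-fold with oxalate.

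The amount of Atp6v0c mRNA relative to each partner was higher with oxalate whichever partner was used. Per Atp6v0d1, which encodes a single-copy subunit of the complex, Atp6v0c stood at 2.36 with PBS and 6.79 with oxalate, a change of 2.88-fold. Per Atp6v0a1 it stood at 2.85 and 11, a change of 3.86-fold and the widest of the 7 partners. Per Atp6v0e2 it stood at 22.6 and 48.9, a change of 2.16-fold and the narrowest. The changes against Atp6v0a2, Tcirg1, Atp6v0b and Atp6v0e lay between 2.5-fold and 2.81-fold. These 7 ratios share the same pair of Atp6v0c values and are not independent of each other, and the choice of members used that pair.

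Of the 8 V0 members with a mean of at least 1 FPKM, 7 were higher and 1 was lower with oxalate, where 50.6% of all genes were higher. At a difference of 2-fold or more only Atp6v0c was called, 1 of 8 members and raised. In the background, 0.292% of the 10267 genes were raised at least 2-fold, 0.653% were changed at least 2-fold in either direction, and 1.99% were changed at least 1.5-fold. At 1.5-fold the member called was again Atp6v0c alone. Because Atp6v0c chose the set, nothing is read from that count. The median log2 difference over the 8 members was 0.11, beside 0.0031 over all genes compared. Without Atp6v0c, 6 of 7 were higher and 1 lower, the median was 0.10 and none reached 1.5-fold. The summed V0 level went from 302.32 to 430.58 FPKM with Atp6v0c and from 243.29 to 256.59 FPKM without it, ratios of 1.42 and 1.05.

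**Figure D3:**
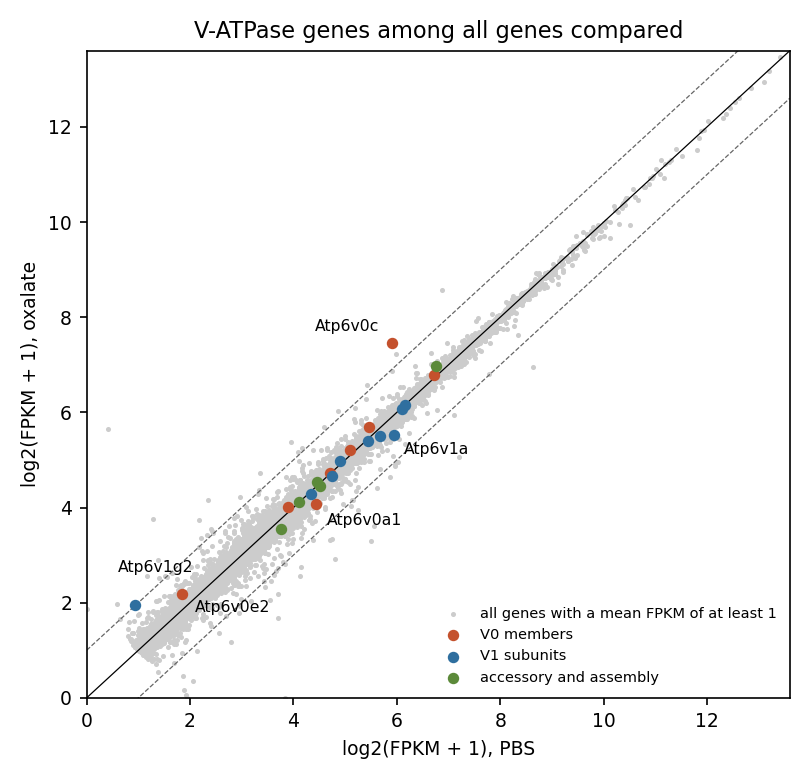
Level of every gene with a mean of at least 1 FPKM (10267 grey points) as log2(FPKM + 1) with PBS (x axis) and with oxalate (y axis), with the V-ATPase genes in colour, a solid line of equal levels and dashed lines at a 2-fold difference. Atp6v0c lies above the upper dashed line, Atp6v1g2 lies on it at low level, and the remaining V-ATPase genes lie between the dashed lines on either side of the solid one, with the labelled Atp6v0a1 and Atp6v1a below it.

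The V1 sector carries the ATPase sites and the stalks that the V0 ring meets. Of its 13 genes, 9 had a mean of at least 1 FPKM, of which 2 were higher and 7 lower with oxalate, and the median log2 difference was -0.04. The summed V1 level went from 366.27 to 342.85 FPKM, a ratio of 0.936. The highest was Atp6v1e1, a peripheral stalk subunit, at 70.84 and 70.23 FPKM. Atp6v1b1, Atp6v1e2 and Atp6v1g3, paralogues best known from kidney or testis, were listed at 0 in both libraries.

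In the V1 sector 1 gene passed 2-fold, Atp6v1g2, a peripheral stalk paralogue known from neurons, at 0.92 and 2.86 FPKM in PBS and oxalate, respectively. Its log2 difference was 1.01 on about 44 and 88 estimated reads, 0.643% of all genes differed by as much, and it overlaps Nfkbil1 on the opposite strand, so that without strand in the counting reads of the pair cannot be told apart. It passed 2-fold narrowly on the scale with the added 1, and the call was lost after centring on genes of like mean FPKM and with a mean of at least 5 FPKM. Without the added 1 its FPKM ratio was 3.11, and the interval of the log2 ratio was 1.10 to 2.19. Atp6v1g2 reached 6.08% of the summed G subunit FPKM, from 1.8%, and Atp6v1g1 held 98.2% and 93.9%. Atp6v1a, the catalytic A subunit, lay at 60.39 and 44.93 FPKM, a log2 difference of -0.42 with an interval of -0.49 to -0.37. It had the lowest ratio among V1 genes with a mean of at least 1 FPKM, and 3.93% of all genes differed by as much. Atp6v1a was named here after its values were seen. Among V1 genes it was the only one with CACGTG or TCACGTGA in a matched promoter, 1 of 9 genes. Among accessory and assembly genes CACGTG was found for 2 of 5, Ccdc115 and Vma21, named after the search. TCACGTGA was found for 1 of these 5, Vma21. Over all genes the shares were 8.09% for CACGTG and 1.12% for TCACGTGA.

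Other genes help to build or dock the pump. Of 6 accessory and assembly genes, 5 had a mean of at least 1 FPKM, 3 higher and 2 lower, with a median log2 difference of 0.01. None passed 1.5-fold, which 1.99% of all genes did, so the count is near the background. Atp6ap1, an accessory protein of the V0 sector, was the highest, at 107.38 and 125.09 FPKM, a log2 difference of 0.22. Atp6ap1l, its paralogue, was the lowest and was listed at 0. Vma21, a chaperone of V0 assembly in the endoplasmic reticulum, was at 12.45 and 10.71 FPKM, a log2 difference of -0.20, and was named after its values were seen.

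**Figure D4:**
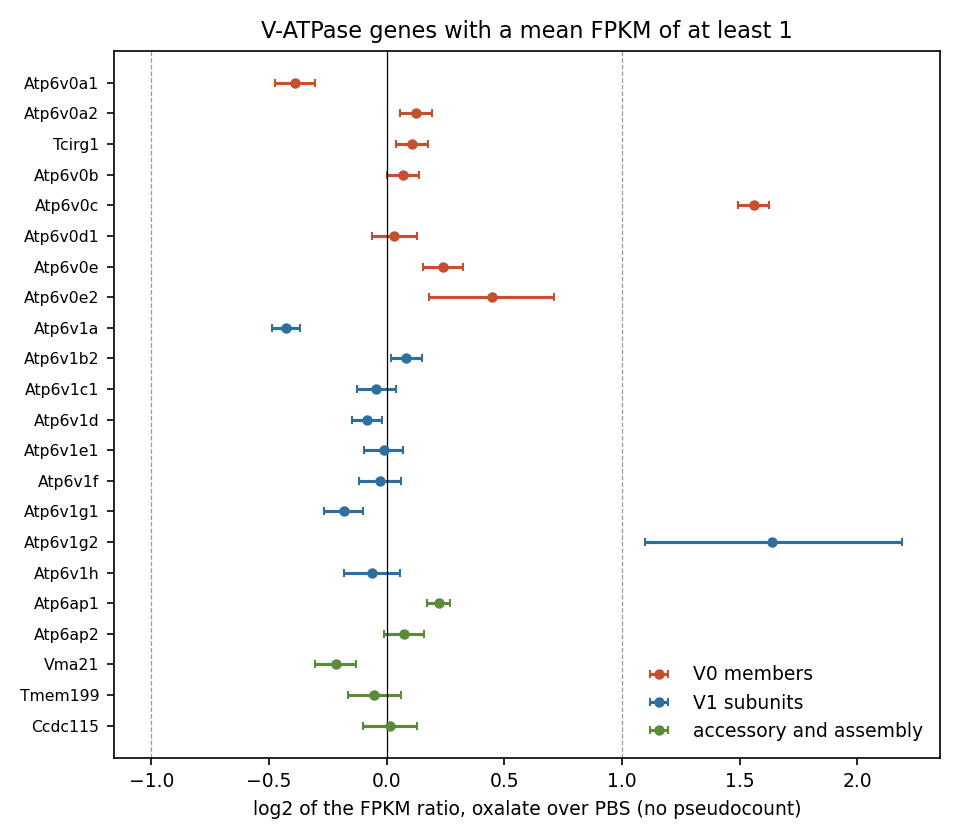
Log2 ratio of FPKM, oxalate over PBS, without an added 1 (x axis), for each V-ATPase gene with a mean of at least 1 FPKM, with bars for the exact 95% interval from estimated reads, which covers counting error only, and dashed lines at 2-fold. Atp6v0c and Atp6v1g2 lie beyond the upper 2-fold line, the latter with the widest interval, and Atp6v0a1 and Atp6v1a lie farthest below 0.

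Regulators of the pump and its companions in the lysosomal membrane gave no gene past 1.5-fold, which 1.99% of all genes passed, so nothing particular to them is read from that count. Of 9 genes of the RAVE complex, which rejoins V1 to V0, and of the TLDc family, which acts on the assembled pump, 8 passed the level filter, 7 higher and 1 lower, with a median log2 difference of 0.09. Oxr1, a TLDc protein, was the highest (36.78 and 36.89 FPKM), and Tldc2 the lowest (0 in both). Of 10 genes of Ragulator and the Rag GTPases, the nutrient-sensing platform that meets the V-ATPase on lysosomes, 7 passed, 3 higher and 4 lower, with a median of -0.0011. Lamtor1, its membrane anchor, was the highest (131.06 and 124.45 FPKM) and Rragd the lowest (0.01 and 0).

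All 10 genes of endolysosomal channels and exchangers, which carry the counter-ions of proton pumping or release lysosomal cations, passed the filter, 7 higher and 3 lower, with a median log2 difference of 0.07. Mcoln1, a lysosomal cation channel, was the highest (43.47 and 46.38 FPKM) and Tpcn2 the lowest (2.23 and 2.38). Of the 4 MiT/TFE genes, the family of Tfeb, Tfe3 and Mitf, Tfe3 was the highest (30.44 and 33.40 FPKM) and Tfec the lowest (0 in both). The 3 of 4 MiT/TFE genes that passed were all higher, by a median log2 difference of 0.13. Over all genes compared, 50.6% were higher, and 32.6% differed by as much as Tfe3, the middle gene. The c-ring of the mitochondrial ATP synthase, a distant relative of the V0 ring, had 3 genes, all lower by a median log2 difference of -0.07, where 56.2% of all genes differed by as much as the middle gene. They were led by Atp5g2 (119.19 and 113.18 FPKM), and Atp5g1 was the lowest (20.53 and 18.22).

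The genes beside Atp6v0c on chromosome 17 were at low level or at 0. Amdhd2, a sugar-phosphate deacetylase, begins 99 bases downstream of the end of Atp6v0c on the same strand and was listed at 0 in both libraries. Tbc1d24, on the other side at a distance of 5728 bases and on the same strand, was at 1.52 and 1.97 FPKM, a log2 difference of 0.24. Neither neighbour came near the level of Atp6v0c in either library.

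The 5 genes whose pair of levels lay nearest to that of Atp6v0c were Rtn4, Scamp4, Txndc5, Tnk2 and Rps2, by distance in log2(FPKM + 1) over the 2 libraries. Rtn4, a protein that curves the endoplasmic reticulum membrane, was the closest at a distance of 0.245, with 62.45 FPKM with PBS and 148.0 FPKM with oxalate. Scamp4, a carrier membrane protein, followed at 0.577 with 59.31 and 116.28 FPKM. Txndc5, a thioredoxin-like protein of the endoplasmic reticulum, lay at 0.656 with 80.46 and 123.93 FPKM. Tnk2, a kinase, and Rps2, a ribosomal protein, lay at 0.765 and 0.775. A likeness over a pair of libraries describes these levels only.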

How the data were processed

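Polyadenylated RNA of 4T1 cells was sequenced from randomly primed libraries. The authors deposited FPKM values rounded to 2 decimals, 1 column per library. The submitters' processing notes name Bowtie2 2.2.8 and TopHat2 2.1.1. The quantification tool, genome build and annotation are not given in the sources used here. Ensembl identifiers were matched to GENCODE M21 (GRCm38): 21848 of 21911 had a symbol and 63 had none. Differences were log2((oxalate + 1)/(PBS + 1)) over genes with a mean of at least 1 FPKM, and 2-fold was counted as changed. Reads were estimated from the steps of FPKM times the mean length of coding transcripts, fitted on 84 and 76 values, 1 read being 0.0176 and 0.0274 FPKM at 1 kb. Rounding makes them approximate. With 1 library per condition no test was run. FPKM sums were 567163 and 559026, so values are relative to the library total.

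Members and lists were chosen with earlier results of these data known. Named genes were all members, the highest and lowest gene and every gene changed 1.5-fold in each other list, neighbours and pseudogenes of Atp6v0c, and its 5 nearest genes by level. Coding identity used principal transcripts aligned with Biopython 1.88. Computation used Python 3.11.15, pandas 2.3.3 and SciPy 1.17.1 and was tested on simulated data.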

Additional observations from a re-analysis of the deposited data

How the results depend on the processing

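Alternatives gave 54 values. These were pseudocounts of 0.1 and 0.001, a rescaling by the median ratio, centring on genes of like mean FPKM and other filters on the mean. A 1.5-fold threshold, the mean for the median, reads in place of FPKM, and other partners were also used. Of these values, 49 stayed close to the value reported, 5 moved and 0 were scored as reversed. Counts, medians and the Atp6v0c difference could not be scored as reversed. The V1 summary changed sign, -0.04 as a median and 0.03 as a mean, and was scored as close. Some alternatives could not differ. Length cancels in the ratio of Atp6v0c to Atp6v0d1 when reads replace FPKM (2.88 in both). Both e genes passed the mean filter of 1 FPKM, so it left the Atp6v0e2 share difference at 0.825 percentage points. The log2 difference of Atp6v0c lay between 1.54 and 1.56 under the pseudocounts, the rescaling and the centring, the 4 alternatives run for it. For single genes the centring is the setting that could turn a direction, since a pseudocount cannot and the median ratio was 1. It turned 0 V0, V1 or accessory genes compared, and it turned the epithelial markers Epcam and Krt7 from lower to higher. The V0 summary became 0.26 with the mean in place of the median, since the mean takes in Atp6v0c. The number of V1 genes past 2-fold became 0 after centring on genes of like mean FPKM and 0 with a mean of at least 5 FPKM, which leaves out Atp6v1g2. The Tcirg1 share of the a subunit was higher with oxalate by 4.62 percentage points by FPKM and 3.09 by estimated reads, which are not divided by length. With Atp6v0c left out, an alternative chosen after seeing the data, 0 V0 members passed 2-fold. No paired analysis was possible because there was only 1 library of each kind. Among the V0 members, depth limits Atp6v0d2, Atp6v0a4 and Atp6v0e2 most, and no estimate of the spread between cultures could be had.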
